A study of Mus musculus with 6 samples.

Results

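Cathepsin K, the collagen-degrading protease of osteoclasts, was followed together with the other abundant cathepsins of the same cells and with cystatin C. Cystatin C inhibits the cysteine proteases among the cathepsins. The set holds 10 genes, taken by name from the 57180 genes of the count table: Ctsk, Ctsa, Ctsb, Ctsc, Ctsd, Ctsh, Ctsl, Ctss, Ctsz and Cst3. All 10 were in the table and passed the filter on low counts, which kept 13428 genes. Ctsk was already known from these data to be higher in knockout cells when the set was put together, so its place in the set is no independent evidence of that difference.

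RNA was measured in osteoclast precursors (OCPs), a stage between the bone marrow macrophage and the osteoclast. There were 3 libraries from wildtype (WT) C57BL/6 mice and 3 from lincRNA-EPS-/- (KO) mice, which lack a long noncoding RNA and were generated by a commercial centre. Every culture received the growth factor M-CSF at 40 ng/ml for 24 h and then RANKL, the cytokine that starts osteoclast differentiation, at 40 ng/ml for 48 h, and the design text names no LPS. The labels call the cells bone marrow-derived macrophages. The design text calls the 3 libraries of a genotype biologically independent. The sources used here give neither the age of the donor mice nor whether each library came from a mouse of its own.

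Cathepsins are proteases that work mainly in the acid interior of lysosomes. Most of them are cysteine proteases of the papain family, while cathepsin D is an aspartic protease and cathepsin A a serine carboxypeptidase. They are made as inactive precursors, carried to the lysosome largely by mannose 6-phosphate receptors, and activated there by removal of a propeptide. Osteoclasts release cathepsin K onto bone, where it cuts the triple helix of type I collagen. Cystatin C is a small secreted protein that blocks the papain-like cathepsins by filling their active-site cleft.

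The 7 cysteine cathepsins of the set share the stretch around the catalytic cysteine, shown here because it defines the family and because reads from so similar a stretch could be shared between genes. In each line the coding strand of the GRCm38 transcript is given 5′ to 3′ over 33 bases, with the cysteine codon in capitals.
Ctsk: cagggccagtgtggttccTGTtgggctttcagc
Ctsl: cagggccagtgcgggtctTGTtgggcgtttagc
Ctss: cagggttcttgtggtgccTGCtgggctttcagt
Ctsb: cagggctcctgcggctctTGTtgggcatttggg
Ctsh: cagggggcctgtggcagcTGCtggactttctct
Ctsz: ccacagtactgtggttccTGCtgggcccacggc
Ctsc: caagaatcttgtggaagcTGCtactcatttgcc
The capitals are codon 139 of the Ctsk reading frame. Of the 33 bases, Ctsl had 28 in common with Ctsk, Ctss 26, Ctsb 23, Ctsh and Ctsz 21 each, and Ctsc 16. Despite this likeness, none of the transcripts had a run of 31 bases in common with another gene of the set. The Ctsk, Ctsc, Ctsl, Ctss, Ctsz and Cst3 transcripts shared 0% of such runs with any other annotated gene.

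Ctsk and Ctss are neighbours on mouse chromosome 3. In the GRCm38 annotation Ctsk (ENSMUSG00000028111) lies from 95499256 to 95509362 on the plus strand in 8 exons, and Ctss (ENSMUSG00000038642) from 95526786 to 95556403 on the same strand, with 17423 bases and 0 annotated genes between them. Positions are those of this annotation, since the submitters' processing notes name the build GRCm39 for the counts. RefSeq promoter windows of 300 bases on GRCm38.p6, from 250 bases before a gene's start to 50 after it, were matched for 8 of the 10 genes and searched on both strands for motifs of factors known from osteoclasts and lysosomes. The letters were CACGTG and its variant CATGTG (E-boxes, bound by the MITF and TFEB family), TGANTCA (AP-1), GAGGAA (the core bound by PU.1) and TGGAAA (the core bound by NFAT). The windows of the 2 neighbours and of Ctsd, whose windows held different motifs, are printed with every match in capitals.
Ctsk, chr3:95498960-95499259, plus strand: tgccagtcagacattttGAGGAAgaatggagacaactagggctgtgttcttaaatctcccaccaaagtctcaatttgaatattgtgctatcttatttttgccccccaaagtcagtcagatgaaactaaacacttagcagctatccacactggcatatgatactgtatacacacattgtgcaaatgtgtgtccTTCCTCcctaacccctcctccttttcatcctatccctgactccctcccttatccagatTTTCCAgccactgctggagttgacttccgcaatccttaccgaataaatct
Ctss, chr3:95526536-95526835, plus strand: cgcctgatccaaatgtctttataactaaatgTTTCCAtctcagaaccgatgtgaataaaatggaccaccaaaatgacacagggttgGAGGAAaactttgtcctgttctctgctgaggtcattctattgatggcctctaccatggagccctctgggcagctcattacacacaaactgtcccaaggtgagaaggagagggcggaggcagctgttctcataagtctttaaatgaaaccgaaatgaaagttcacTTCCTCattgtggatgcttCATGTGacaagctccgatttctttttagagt
Ctsd, chr7:142387778-142388077, minus strand: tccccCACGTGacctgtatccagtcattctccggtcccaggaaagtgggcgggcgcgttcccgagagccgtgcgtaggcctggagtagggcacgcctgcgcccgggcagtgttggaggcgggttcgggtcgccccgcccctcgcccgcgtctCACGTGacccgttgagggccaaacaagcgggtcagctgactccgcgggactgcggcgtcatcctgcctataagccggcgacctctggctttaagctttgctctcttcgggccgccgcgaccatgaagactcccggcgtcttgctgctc
Both neighbours held 2 copies of the PU.1 core and 1 of the NFAT core, and Ctsd held 2 copies of the first E-box. That E-box was found for 3 of the 8 matched genes (Ctsa, Ctsd and Ctsl), against 7.15% of all 32851 windows. The PU.1 core was found for Cst3, Ctsc, Ctsk and Ctss, against 28.3% of windows, and the NFAT core for Cst3, Ctsk, Ctsl and Ctss, against 21.4%. CATGTG was found for Ctsa and Ctss, against 14.2%, and TGANTCA for 0 of the 8, against 7.81%. Genes of the set were counted if any of their windows held the motif, while the shares are over the 32851 windows of 27025 gene symbols. The 2 are therefore not strictly alike. Such matches describe letters and not bound sites.

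The library totals ran from 17757351 to 19998611 estimated counts. The targeted transcript, listed as Ttc39aos1, had 20, 37 and 41 counts in the WT libraries and 0 in each KO library. Macrophage markers were abundant, with Lyz2 at 13303 ± 729 normalized counts and Csf1r at 1040 ± 77.2 in WT (SD, n = 3). WT replicate 2 and KO replicate 3 stood apart from the others of their genotype along the GC content of transcripts. The fitted trend put KO replicate 3 at 0.34 above the mean on the log2 scale for transcripts with 41.4% GC and at -0.42 for those with 58.1%, while WT replicate 2 was at -0.28 and 0.27. KO replicate 2 had 2.71% of its counts in ribosomal RNA genes, against 0.202% to 0.576% in the other libraries. For the 10 genes, values corrected for the GC trend are therefore given beside the uncorrected ones, which come first. Normalized counts are given as CPM, counts scaled to a common library size with TMM factors.

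KO OCPs were compared with WT OCPs gene by gene. Ctsk was 1.71-fold higher in KO (95% interval 1.43 to 2.03), while the other 9 genes lay between 0.84-fold and 1.09-fold of WT and their intervals together ran from 0.701-fold for Ctsd to 1.37-fold for Cst3. With the correction for GC content the intervals of these 9 ran from -0.46 for Ctsb to 0.59 for Cst3 on the log2 scale. Ctsk was the only gene of the 10 whose unadjusted p was under 0.05 in edgeR's quasi-likelihood test, where 26.2% of all genes tested were (13.0% higher, 13.2% lower). Past the limits of an adjusted p under 0.01 and a fold change above 1.3, 0 of the 10 were called, and 0.00745% of all genes were. Counted by direction alone, 5 of the 10 were higher and 5 lower, with a median log2 fold change of -0.019 against 0.0091 over all genes tested. The 3 KO libraries did not overlap the 3 WT libraries for Ctsk, which was higher, where 16.9% of all genes did so, and for Ctsb, Ctsd and Ctsz, which were lower, where 18.8% did. In either direction these were 4 of the 10, against 35.7% of all genes. DESeq2 and limma-voom put 3 of the 10 under an unadjusted p of 0.05, which were Ctsk, Ctsb and Ctsd, against 13.9% of the 24756 genes with a p in DESeq2 and 25.8% of the genes in limma-voom. With the GC correction in edgeR 4 were under it, Ctsk and Cst3, higher, and Ctsb and Ctsc, lower, against 26.4% of all genes (12.5% higher, 13.9% lower). At the limits the corrected fit called 0 of the 10 and 0.0298% of all genes. In RNA from whole cultures, fewer cells of a type and less RNA per cell cannot be told apart.

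**Figure D1:**
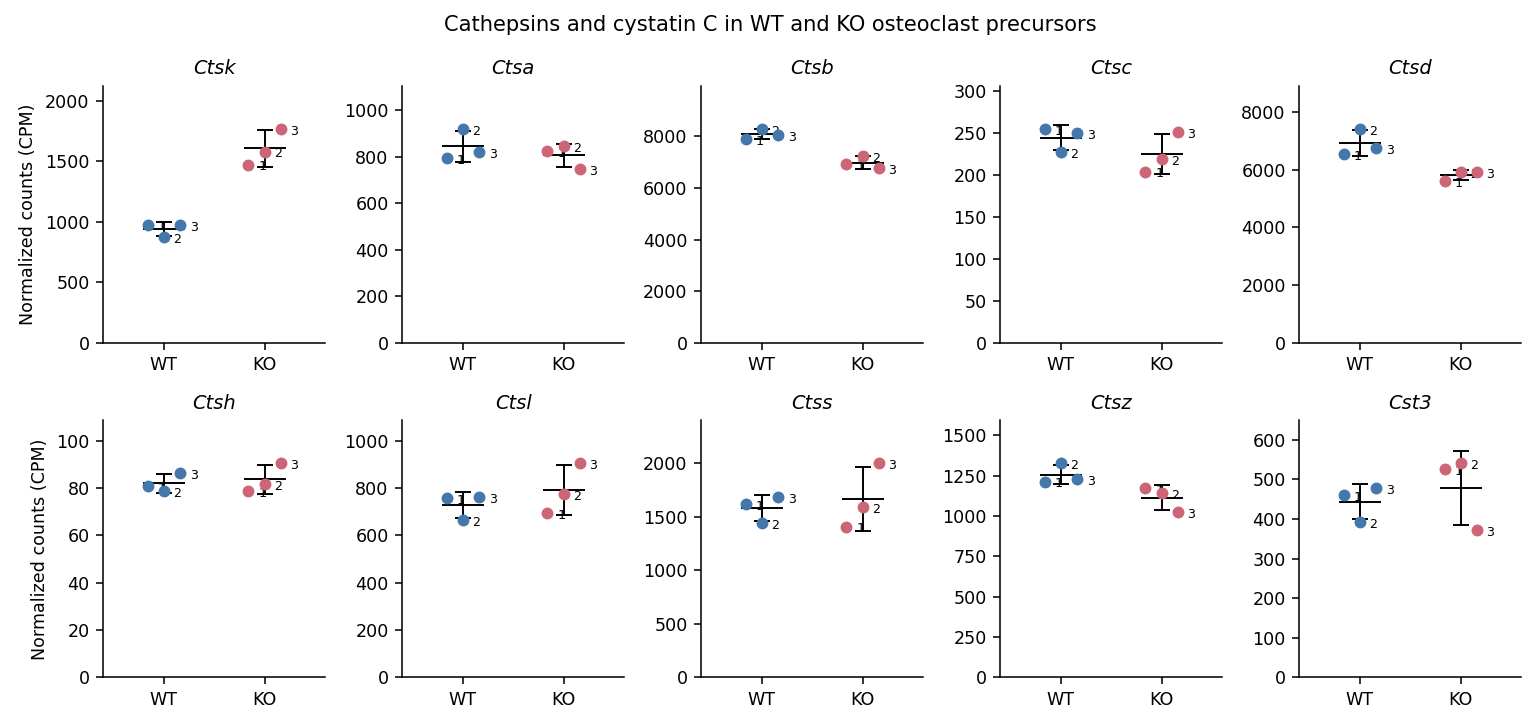
Normalized counts (CPM, vertical axis from 0, each panel with its own scale) of the 10 genes in WT and KO OCPs, with 1 point per library marked by its replicate number and the mean ± SD (n = 3) as a bar. The KO points of Ctsk sit between 1472 and 1769, above all WT points, and those of Ctsb, Ctsd and Ctsz sit below all WT points, while the other 6 genes overlap.

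Ctsk had 976, 875 and 975 CPM in WT replicates 1, 2 and 3 and 1472, 1579 and 1769 CPM in KO replicates 1, 2 and 3. Every KO library was above every WT library, and the lowest WT and the highest KO value came from the 2 libraries that stood apart by GC content. The WT mean was 942 ± 58.5 CPM and the KO mean 1606 ± 150.4 CPM (SD over 3 libraries each). On the log2 scale KO was 0.77 above WT (standard error 0.11, adjusted p = 0.102 in edgeR), which placed Ctsk number 9 of 13428 genes by p. Corrected for GC content it was 0.73 (standard error 0.09, adjusted p = 0.0154), again number 9, and an adjusted p under 0.05 and a higher level in KO then held for 0.529% of all genes. The call at the limits turned on the test, since DESeq2 gave an adjusted p = 6.26e-09 for a log2 fold change of 0.77, past the limits with 1.22% of the genes DESeq2 adjusted. Without KO replicate 3 the log2 fold change was 0.70 (adjusted p = 0.0471 in edgeR), and without WT replicate 2 it was 0.72 (adjusted p = 0.442). Between 15979 and 34735 counts per library lay behind these values, and all of them were whole numbers as deposited. The study's qRT-PCR primers for Ctsk, tccagttttacagcagaggtgt and cagtgcttgcttcccttctg, match its single annotated transcript at bases 849 to 870 and 938 to 957 and bound a product of 109 bases.

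The libraries of the neighbour Ctss overlapped between genotypes. Cathepsin S cuts elastin and, in antigen-presenting cells, the invariant chain of MHC class II. It had 1614, 1443 and 1684 CPM in WT and 1408, 1590 and 1998 CPM in KO libraries. KO replicate 1 was below and KO replicate 3 above all WT libraries. Its log2 fold change was 0.075 (95% interval -0.25 to 0.40, adjusted p = 0.751 in edgeR) and -0.054 with the GC correction (-0.28 to 0.17), so the sign depended on the correction.

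Ctsb and Ctsl are the other broad lysosomal endopeptidases of the set. Ctsb (ENSMUSG00000021939, chromosome 14 from 63122462 to 63145923) had 7898, 8297 and 8062 CPM in WT and 6945, 7235 and 6769 CPM in KO. All 3 KO libraries were below the WT libraries. In edgeR Ctsb stood at -0.21 on the log2 scale (standard error 0.11, adjusted p = 0.256) and at -0.24 with the GC correction (adjusted p = 0.168). DESeq2 gave adjusted p = 0.0740, and 0.0176 with the correction, where an adjusted p under 0.05 held for 11.8% of the genes DESeq2 adjusted. The transcript of Ctsb shared 16.6% of its runs of 31 bases with other genes, mainly Fdft1 on the opposite strand, so its counts are less certain than those of Ctsk. Ctsl (ENSMUSG00000021477, chromosome 13 from 64359337 to 64370890) had 758, 664 and 764 CPM in WT and 694, 774 and 905 CPM in KO. The genotypes overlapped, with the lowest value in WT replicate 2 and the highest in KO replicate 3. The log2 fold change of 0.12 (95% interval -0.16 to 0.39, adjusted p = 0.541) became -0.042 with the GC correction. Its counts were whole in 0 of the 6 libraries as deposited, and exons outside the transcript used here overlap the antisense gene Gm47123 and, over 395 bases, Gm49230, a processed pseudogene on the same strand.

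Ctsc, Ctsh and Ctsz trim proteins from their ends. Cathepsin C, a dipeptidyl peptidase, activates the granule serine proteases of neutrophils. Ctsc (ENSMUSG00000030560, chromosome 7 from 88278085 to 88310888) had 255, 227 and 250.2 CPM in WT and 204, 219 and 250.5 CPM in KO. KO replicates 1 and 2 were below all WT libraries and KO replicate 3 was not. Its log2 fold change was -0.12 (adjusted p = 0.473 in edgeR). Ctsc has the lowest GC content of the 10 transcripts, 43.9%, and with the GC correction it stood at -0.30 on the log2 scale (standard error 0.059, adjusted p = 0.0494). An adjusted p under 0.05 and a lower level in KO then held for 0.804% of all genes. With the correction and each library left out, the log2 fold change was between -0.33 and -0.28 and the adjusted p between 0.0253 and 0.164, under 0.05 only without KO replicate 1. With the correction and the replicate block it was 0.0977, and DESeq2 with the correction gave adjusted p = 0.00294.

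Ctsz (ENSMUSG00000016256, chromosome 2 from 174427493 to 174439039), a carboxypeptidase also called cathepsin X, had 1213, 1326 and 1229 CPM in WT and 1171, 1141 and 1025 CPM in KO. The KO libraries lay below the WT libraries, with a gap between the nearest values that was smaller than the spread within KO. Its log2 fold change was -0.18 (adjusted p = 0.284 in edgeR). With 57.3% its transcript has the highest GC content of the 10, and with the GC correction the log2 fold change was 0.076 (adjusted p = 0.571), of the opposite sign. Ctsh (ENSMUSG00000032359, chromosome 9 from 90054152 to 90076089), an aminopeptidase, had the lowest level of the set. It had 80.7, 78.5 and 86.4 CPM in WT and 78.7, 81.6 and 90.4 CPM in KO. The genotypes overlapped, with KO replicate 3 above all WT libraries, and the log2 fold change was 0.030 (95% interval -0.19 to 0.25, adjusted p = 0.855) and 0.066 with the GC correction.

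The aspartic and the serine cathepsin stood beside these. Ctsd (ENSMUSG00000007891, chromosome 7 from 142375911 to 142388038 on the minus strand) encodes the major aspartic protease of lysosomes. It had 6563, 7432 and 6771 CPM in WT and 5607, 5937 and 5928 CPM in KO, so all KO libraries were lower. Its log2 fold change of -0.25 was the furthest below 0 of the 10 (standard error 0.12, adjusted p = 0.206 in edgeR and 0.0633 in DESeq2). With the GC correction it was -0.040 (95% interval -0.31 to 0.23). The corrected levels of the KO libraries were 5539, 6013 and 7282, and the corrected log2 fold change was -0.16 without KO replicate 3 and 0.041 without KO replicate 1. The annotation places 808 exonic bases of Ctsd under a second gene on the same strand, Gm49369, and 37.1% of its runs of 31 bases were shared with it, so its counts could have been split. Ctsa (ENSMUSG00000017760, chromosome 2 from 164832873 to 164841032) encodes a carboxypeptidase that also protects neuraminidase and beta-galactosidase in a complex. It had 793, 920.0 and 818 CPM in WT and 824, 843 and 748 CPM in KO, and the genotypes overlapped. Ctsa had a log2 fold change of -0.068 (adjusted p = 0.688) and of 0.12 with the GC correction (adjusted p = 0.292). Its exons overlap Neurl2 and Pltp on the opposite strand, and 23.0% of its runs of 31 bases were shared.

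Cst3 (ENSMUSG00000027447, chromosome 2 from 148871722 to 148875692 on the minus strand) encodes the inhibitor cystatin C. It had 461, 393 and 478 CPM in WT and 525, 541 and 372 CPM in KO. KO replicates 1 and 2 were above all WT libraries, and KO replicate 3 was below all of them. The log2 fold change was 0.11 (95% interval -0.24 to 0.45, adjusted p = 0.659 in edgeR), and ran from 0.013 without KO replicate 2 to 0.26 without KO replicate 3 (adjusted p = 0.218). With the GC correction it was 0.33 (0.065 to 0.59, adjusted p = 0.124), and its interval then overlapped that of Ctsk, which began at 0.54. With a library left out as well, the corrected value of Cst3 ran from 0.19 to 0.41 (adjusted p from 0.140 to 0.316). The correction moved WT replicate 2 from -0.26 to -0.44 against the mean of WT replicates 1 and 3. DESeq2 with the correction gave adjusted p = 0.0400.

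**Figure D2:**
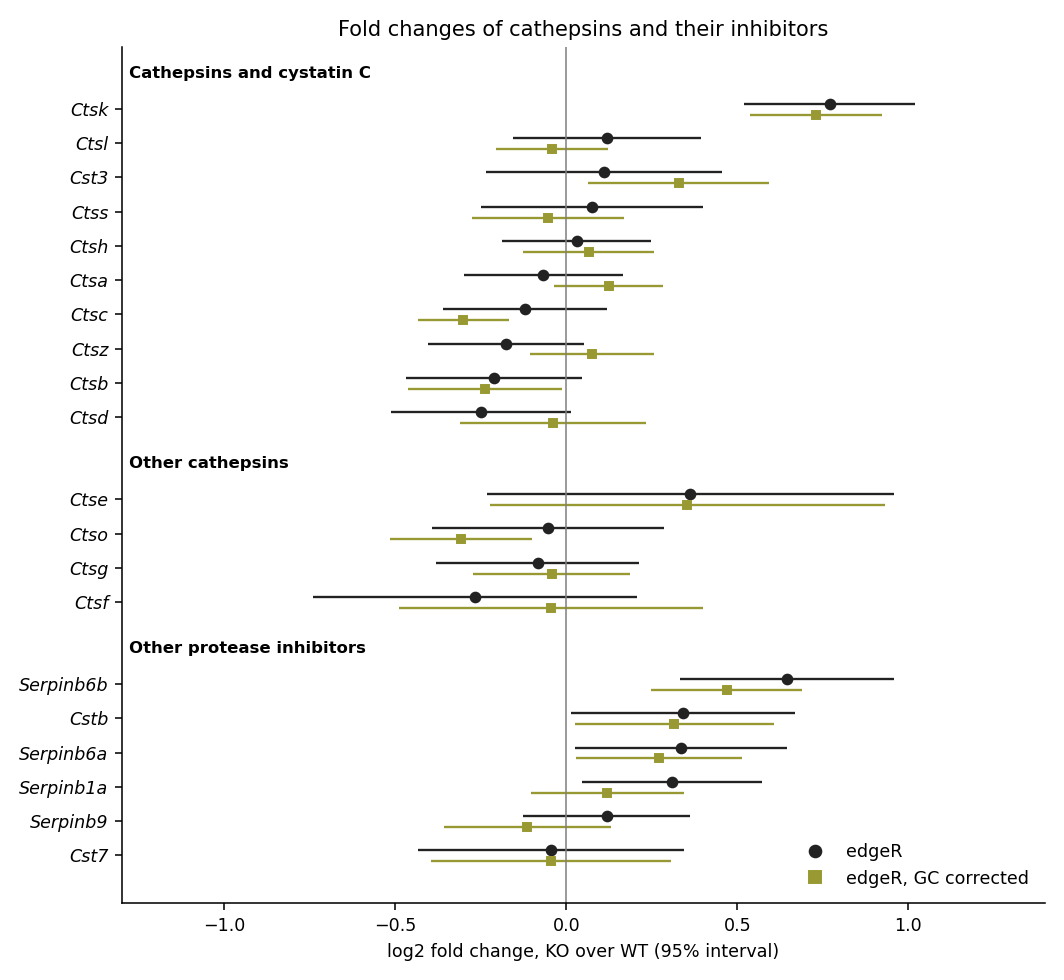
Log2 fold changes of KO over WT (horizontal axis, 0 is no difference) with 95% intervals from edgeR, for the 10 genes and for the tested genes of 2 related lists, as counted (black circles) and corrected for GC content (olive squares). Both intervals of Ctsk, and of Serpinb6b, Cstb and Serpinb6a among the inhibitors, lie above 0, and the signs of Ctsl, Ctss, Ctsa and Ctsz, and of the inhibitor Serpinb9, differ between the symbols.

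Levels per kb of transcript were used to set the genes against each other. In WT OCPs the order was Ctsd at 3254 ± 213 CPM per kb, Ctsb at 1705 ± 42.3, Ctss at 1166 ± 91.2, Ctsz at 872 ± 42.5, Ctsk at 623 ± 38.7, Cst3 at 517 ± 52.5, Ctsl at 370 ± 28.4, Ctsa at 333 ± 26.6, Ctsc at 97.9 ± 5.98 and Ctsh at 50.6 ± 2.53 (SD, n = 3). The libraries of neighbours in this order did not overlap, except those of Ctsl and Ctsa. In KO OCPs Ctsk, at 1062 ± 99.5 CPM per kb, stood above Ctsz, at 772 ± 53.5, and its libraries overlapped those of Ctss, at 1229 ± 223. Ctsk thus took the fourth place in KO, after the fifth in WT. Counted per kb of coding sequence, Ctsb stood before Ctsd, and Ctsk was number 6 in WT and number 4 in KO.

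Ratios within a library do not depend on how libraries were scaled to each other. Ctsb has the GC content nearest to that of Ctsk, 49.2% against 48.9%, so this ratio is also little touched by the GC trend. The ratio of Ctsk to Ctsb per kb was 0.388, 0.331 and 0.380 in WT and 0.665, 0.685 and 0.820 in KO, 1.98-fold higher in KO on average. The ratio of Ctsk to its neighbour Ctss was 0.542, 0.543 and 0.519 in WT and 0.937, 0.890 and 0.793 in KO. The ratio to Ctsl, the most like Ctsk over the 33 bases shown above, was 1.68, 1.72 and 1.66 in WT and 2.76, 2.66 and 2.55 in KO. None of these ratios overlapped between genotypes, and p = 0.1 is the smallest that a two-sided exact permutation test of 3 libraries against 3 can give.

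Of the summed level per kb of the 7 cysteine cathepsins, Ctsk made up 12.8 ± 0.603% in WT and 20.9 ± 0.679% in KO (SD, n = 3). The share of Ctsb was 34.9 ± 1.39% in WT and 29.1 ± 2.31% in KO. Ctsz made up 17.9 ± 1.17% and 15.3 ± 1.95%, and Ctsc 2.00 ± 0.0975% and 1.77 ± 0.0796%, and these 3 shares were lower in KO without overlap. The shares of Ctss, Ctsl and Ctsh overlapped. From GC-corrected levels the share of Ctsk was 12.9 ± 0.567% in WT and 20.8 ± 0.504% in KO, and those of Ctsb and Ctsc were again lower without overlap. The corrected share of Ctsz was 16.3 ± 0.227% in WT and 16.7 ± 0.721% in KO, with overlap, and that of Ctsl was 7.93 ± 0.0844% and 7.52 ± 0.150%, without overlap. As shares sum to a fixed total, a higher share of Ctsk lowers the others. The shares also depend on the length used. Per kb of coding sequence Ctsb stood at 7950 CPM in WT and 6866 in KO, and Ctsk at 955 and 1628. Shares by that length were not computed, but that of Ctsk would be lower in both genotypes. Per kb of transcript, the level of Cst3 was 10.6 ± 0.892% of the sum of the 7 cysteine cathepsins in WT and 11.1 ± 2.66% in KO, with overlap. The 10 genes together took 2.11 ± 0.0522% of all counts in WT and 1.96 ± 0.0562% in KO, and without Ctsk 2.02 ± 0.0574% and 1.80 ± 0.0464%. Both totals were lower in every KO library, and most of these counts were those of Ctsb and Ctsd. With GC-corrected levels the total of the 10 genes was 2.07 ± 0.0192% in WT and 2.00 ± 0.122% in KO, with overlap, and KO replicate 3 was above every WT library. Without Ctsk the corrected total was 1.97 ± 0.0199% in WT and 1.84 ± 0.110% in KO, without overlap.

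**Figure D3:**
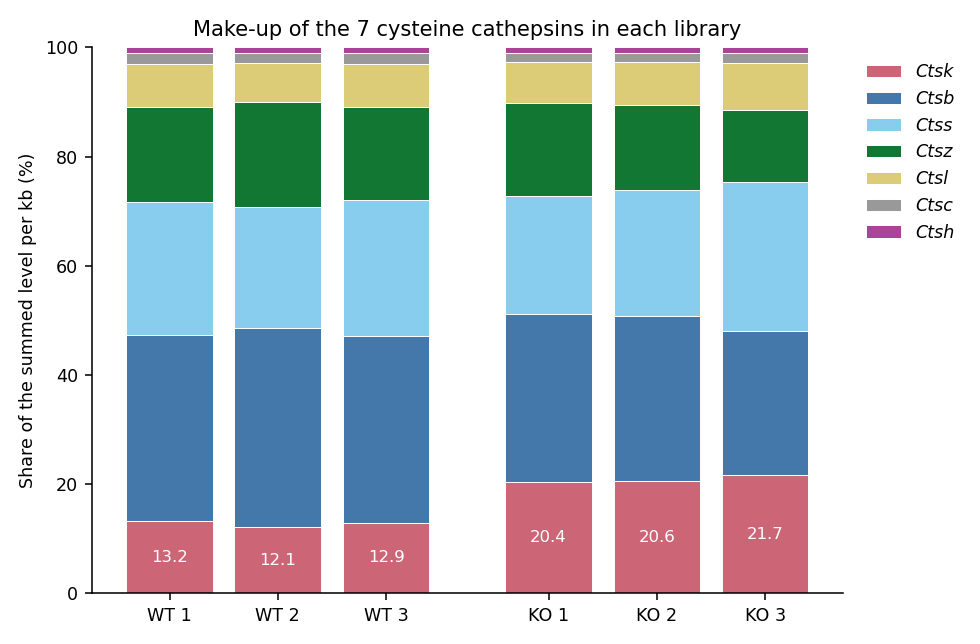
Share (%, vertical axis) of each of the 7 cysteine cathepsins in their summed level per kb of transcript, with 1 bar per library. The Ctsk segment at the base, with its share printed in it, is between 12.1% and 13.2% in the WT bars and between 20.4% and 21.7% in the KO bars.

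The GC trend could be read in the set itself. In KO replicate 3 against the mean of KO replicates 1 and 2, the low-GC genes Ctsc, Ctsl and Ctss were 0.24, 0.30 and 0.42 higher on the log2 scale, and the high-GC genes Ctsa, Ctsz and Cst3 fell by 0.16, 0.17 and 0.52. Ctsd, with 55.9% GC, was at 0.039 there and did not follow the trend. WT replicate 2 against WT replicates 1 and 3 ran the other way for Ctsc, Ctsl, Ctss, Ctsa and Ctsz, with Ctsl at -0.20 and Ctsa at 0.19. Cst3 was low in both libraries, at -0.26 in WT replicate 2, so its deviation did not follow the trend there. Ctsk was at 0.21 in KO replicate 3 and -0.16 in WT replicate 2, and at 0.18 and -0.14 after the correction. In KO replicate 3 the correction moved Ctsa to 0.12, Ctsz to 0.20 and Ctsd to 0.34, so all 3 then lay above the mean of the other 2 KO libraries.

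**Figure D4:**
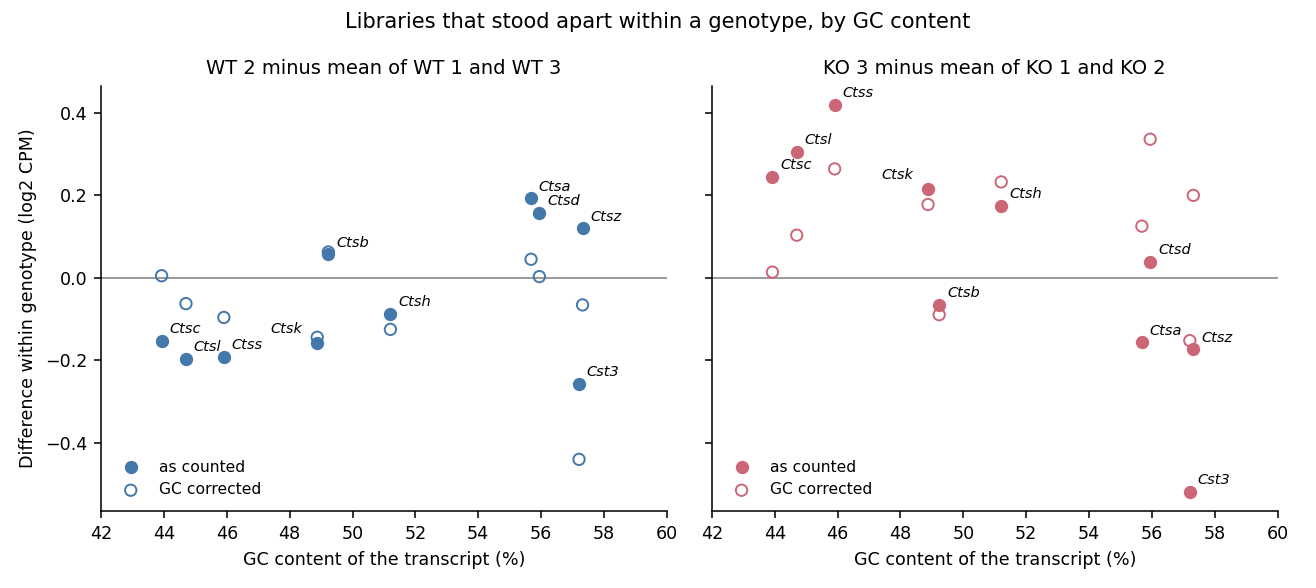
Difference in log2 CPM (vertical axis) between the library that stood apart and the mean of the other 2 of its genotype, against the GC content of the transcript (%), for the 10 genes in WT (left) and KO (right), as counted (filled) and corrected (open). In KO replicate 3 the points run from 0.42 for Ctss down to -0.52 for Cst3, and in WT replicate 2 those of Ctsc, Ctsl and Ctss lie below 0 and those of Ctsa, Ctsd and Ctsz above.

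Of 13 other cathepsin genes, 4 passed the filter on low counts. They were Ctsg, the serine protease of neutrophil granules, at 27.8 ± 1.15 CPM in WT and 26.3 ± 3.97 in KO, Ctso at 24.7 ± 2.43 and 23.8 ± 4.41, Ctsf at 3.48 ± 0.758 and 2.88 ± 0.0627, and Ctse at 1.12 ± 0.157 and 1.43 ± 0.260 (SD, 3 libraries each). In edgeR 0 of the 4 had an unadjusted p under 0.05, against 26.2% of all genes, and the genes stood at -0.084, -0.054, -0.27 and 0.36 on the log2 scale (adjusted p 0.385 to 0.833). Ctsf was at -0.045 with the GC correction. Ctso, with 41.8% GC, had a log2 fold change of -0.31 with the GC correction (adjusted p = 0.0930) and was then the 1 gene of the 4 with an unadjusted p under 0.05. The lymphocyte cathepsin Ctsw had 0 to 5 counts per library. The 8 genes of the cathepsin cluster expressed in rodent placenta, Ctsj, Ctsm, Ctsq, Ctsr, Cts3, Cts6, Cts7 and Cts8, had 0 counts in every library, where 3 counts correspond to 0.150 to 0.173 CPM.

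Among 18 other protease inhibitors, 6 were tested, and 5 of them were higher in KO. The unadjusted p was under 0.05 for 4, all higher, against 13.0% of all genes, and the median log2 fold change of the 6 was 0.32. After the GC correction 4 were higher and 2 lower, 3 of the higher ones with an unadjusted p under 0.05, against 12.5% of all genes. The inhibitor of the cysteine cathepsins inside the cell, Cstb, had 605, 423 and 602 CPM in WT and 661, 737 and 667 CPM in KO. All KO libraries were above the WT libraries, of which WT replicate 2 was far below the other 2. It was at 0.34 on the log2 scale (standard error 0.14, adjusted p = 0.180 in edgeR) and 0.32 with the GC correction, and without WT replicate 2 it was at 0.19 and 0.16. Serpinb6b, one of the intracellular serpins, had 23.5 ± 2.36 CPM in WT and 36.9 ± 5.47 CPM in KO (SD, n = 3), without overlap. Its log2 fold change was 0.65 (adjusted p = 0.147 in edgeR) and 0.47 with the GC correction, and it was past the limits in DESeq2 (adjusted p = 0.00569). Serpinb6a and Serpinb1a had log2 fold changes of 0.34 (adjusted p = 0.171) and 0.31 (adjusted p = 0.161), and with the GC correction they were at 0.27 and 0.12. Serpinb9 was at 0.12 (adjusted p = 0.492) and at -0.11 with the correction, and Cst7, which encodes cystatin F, at -0.044 (adjusted p = 0.880).

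The next list held genes that process cathepsins and carry them to the lysosome. It also held Psap and genes of lysosomal membrane proteins, so its counts are not those of cathepsin delivery alone. Of 12, all were tested, 3 were higher and 9 lower, and the median log2 fold change was -0.13. The unadjusted p was under 0.05 for 1 higher and 2 lower genes, Gnptab, Sort1 and Psap, against 13.0% higher and 13.2% lower over all genes. Sort1, a sorting receptor, had 81.8, 86.5 and 86.6 CPM in WT and 73.0, 61.7 and 64.3 CPM in KO, a log2 fold change of -0.36 (adjusted p = 0.147) and of -0.34 with the GC correction. Psap, which encodes prosaposin, had 10816 ± 815 CPM in WT and 8380 ± 616 CPM in KO libraries (SD, n = 3), and was at -0.37 (adjusted p = 0.153) and at -0.22 with the correction. Gnptab, part of the enzyme that adds the mannose 6-phosphate signal, was at 0.22 (adjusted p = 0.178), the receptor gene M6pr at 0.25 (adjusted p = 0.202), and Laptm5, a lysosomal membrane protein gene, at -0.34 (adjusted p = 0.203). With the correction these 3 were at 0.16, 0.18 and -0.14. The gene of the other mannose 6-phosphate receptor, Igf2r, named outside the rule, was at -0.24 (adjusted p = 0.244 in edgeR) and at -0.20 with the correction. With the correction the unadjusted p was under 0.05 for 0 higher and 3 lower genes, Sort1, Lamp2 and Scarb2, against 12.5% and 13.9% of all genes, and no longer for Gnptab and Psap. In edgeR 0 genes of this list had an adjusted p under 0.05, with or without the correction. Over all genes this held for 1 gene without the correction, and with it for 0.529% higher and 0.804% lower. In DESeq2 adjusted p was 0.0216 for Psap and 0.0333 for Sort1, and with the correction it was 0.00898 for Sort1, 0.0266 for Psap and 0.0232 for Lamp2. Lamp2 and Scarb2, which encode lysosomal membrane proteins, were named after their values were seen.

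The list of lysosomal hydrolases also held the protease gene Tpp1 and Npc2 and Gm2a, which encode lipid-binding proteins. Of its 29 genes, 12 were higher and 17 lower, with a median log2 fold change of -0.045. The unadjusted p was under 0.05 for 2 higher genes, among them Arsb at 0.38, and for 6 lower genes, against 13.0% and 13.2% of all genes, among them Pla2g15 at -0.43, Gaa at -0.51 and Naglu at -0.54. Adjusted p was between 0.147 and 0.156 for these 4 in edgeR. Pla2g15 was at -0.28, Gaa at -0.18 and Naglu at -0.22 with the GC correction. Arsb, which encodes a sulfatase, had 263, 287 and 275 CPM in WT and 381, 335 and 355 CPM in KO, and was at 0.40 with the correction (adjusted p = 0.0386).

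Osteoclast genes other than Ctsk were counted next. Of 20, 11 were higher and 9 lower, 8 and 2 of them with an unadjusted p under 0.05, against 13.0% and 13.2% of all genes, and the median log2 fold change was 0.11. With the GC correction 17 were higher and 3 lower, 9 and 0 of them with an unadjusted p under 0.05, against 12.5% and 13.9% of all genes, and the median was 0.20. The 5 with the lowest p were Dcstamp, needed for cell fusion, at 0.84, Atp6v0d2, a subunit of the proton pump, at 0.88, Car2, a carbonic anhydrase, at 0.51, Oscar, a costimulatory receptor, at 0.70, and Acp5, which encodes tartrate-resistant acid phosphatase, at 0.38. Their libraries did not overlap between genotypes. Over the 20 genes this held for 8 higher and 2 lower, against 16.9% and 18.8% of all genes. As the 5 were picked by p, their values are no added evidence. Adjusted p in edgeR ran from 0.0635 for Dcstamp to 0.147 for Acp5. With the GC correction it ran from 0.00456 for Dcstamp to 0.0347 for Oscar, and the log2 fold changes were between 0.48 and 0.76. DESeq2 put 4 of these 5 past the limits, all but Acp5 (adjusted p = 0.0113), against 1.22% of the genes DESeq2 adjusted. The E-box-binding factors, named here for the motif above and outside the rule for named genes, were in this list too. Tfeb was at -0.52 (adjusted p = 0.149) and Tfe3 at -0.30 (adjusted p = 0.156), and with the GC correction they were at -0.15 and -0.047. Mitf was at 0.25 (adjusted p = 0.175) and at 0.059 with the correction.

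**Figure D5:**
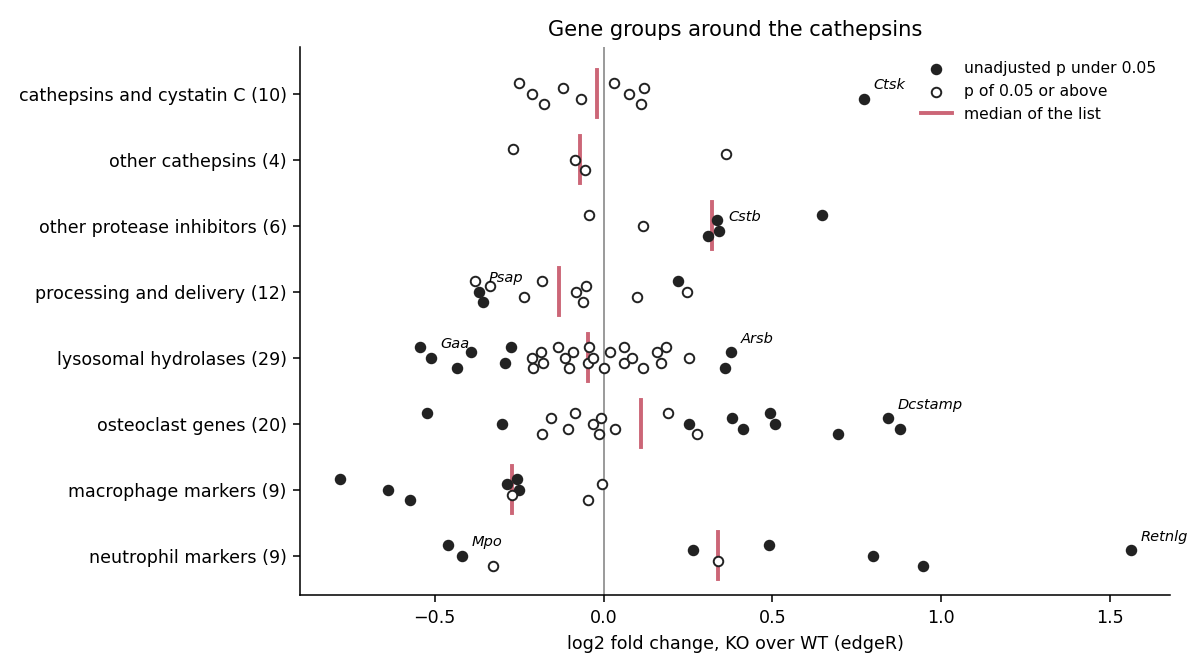
Log2 fold changes of KO over WT in edgeR (horizontal axis) for the tested genes of 8 lists, with the number of genes in brackets, filled where the unadjusted p was under 0.05 and with a red line at the median of the list. Ctsk stands alone at the right of its own group, and the medians run from -0.27 for the macrophage markers to 0.34 for the neutrophil markers.

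Markers of other cells were read beside these values. All 9 macrophage markers tested were lower in KO, 6 of them with an unadjusted p under 0.05, against 13.2% of all genes, and 7 without overlap, against 18.8%. After correction for GC content 8 were lower and 1 higher, 5 of the lower ones with an unadjusted p under 0.05, against 13.9% of all genes. Their summed level was 16625 to 17747 CPM in WT and 14941 to 17718 in KO, and Lyz2, whose libraries overlapped, made up most of it. Of 9 neutrophil markers tested, 6 were higher and 3 lower, 5 and 2 of them with an unadjusted p under 0.05, against 13.0% and 13.2% of all genes, and the summed level of the list was 1294 to 1451 CPM in WT and 1705 to 2031 in KO. The GC correction left 6 higher and 3 lower, 6 and 0 of them with an unadjusted p under 0.05, against 12.5% and 13.9%. S100a8, S100a9 and Retnlg were at 0.94, 0.80 and 1.56 on the log2 scale, and at 0.79, 0.65 and 1.46 with the GC correction. Camp, Ltf and Ngp, the other higher markers, were at 0.34, 0.27 and 0.49. Mpo, Elane and Prtn3, whose products are stored in the same granules as that of Ctsg, were at -0.42, -0.33 and -0.46, and at -0.21, -0.099 and -0.11 with the correction. Ly6g, the defining marker of mature neutrophils, had 0 to 5 counts per library. Erythroid markers passed the filter for 0 of 6 genes, and the summed lymphoid markers were at 13.4 to 16.8 CPM. Of the dendritic cell markers 4 were tested, and all were higher (median log2 fold change 0.45), 0 of them with an unadjusted p under 0.05, against 13.0% of all genes. Their sum was 7.87 to 11.6 CPM in WT and 11.9 to 15.9 in KO. Of the stromal markers 3 were tested, and all were lower (median -0.42). The unadjusted p was under 0.05 for 1 of them, against 13.2% of all genes. With the GC correction it was so for 0, against 13.9% of all genes, and the median was -0.24. As counted, the stromal markers had sums of 14.1 to 19.8 CPM in WT and 9.88 to 16.2 in KO. The part of these cells in the values of the cathepsins was not tested.

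The genes whose levels moved most like Ctsk over the 6 libraries were found by the root mean square distance of centred log2 CPM. Dcstamp was nearest, at 0.042, and was followed by A330069E16Rik at 0.049, Slfn1 at 0.057 and Ghr, the growth hormone receptor, at 0.065. A330069E16Rik and Slfn1 were near the filter, with 0.680 and 1.53 CPM in WT, so their distances rest on few counts. On GC-corrected values Dcstamp, at 0.040, was the nearest of the genes with a GC value, and Atp6v0d2 came next at 0.062. A330069E16Rik has no GC value, so its levels could not be corrected. Among the other 9 genes of the set the nearest to Ctsk was Ctsl at 0.329, number 3589 of 13427 genes, and the furthest Ctsd at 0.522, number 9134. Of the 4 other cathepsins tested, Ctse, with few counts, was at 0.319, number 3274, and the other 3 were between 0.428 and 0.555.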

How the data were processed

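RNA from 3 WT and 3 KO cultures was sequenced as stranded mRNA libraries. The submitters' processing notes name fastp, HISAT2, StringTie, RSEM and GRCm39 without versions or roles, and the paper names only the sequencing provider's cloud platform. The authors deposited 1 table of estimated counts per gene, not normalized, in which 25.1% to 26.6% of the detected genes of a library were not whole. Its columns of genotype means and pathway terms were not used. The label for batch gives each library a name of its own, so it forms no batch.

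Estimated counts were rounded. In R 4.3.3 with edgeR 4.0.16, genes were filtered by filterByExpr, scaled by TMM and compared by genotype with the quasi-likelihood test (legacy = FALSE). Benjamini-Hochberg adjustment ran over all 13428 genes. Limits were an adjusted p under 0.01 and a fold change above 1.3, where the study's volcano plot draws its lines. The caption of its heatmap gives 1.3 on the log2 scale, which none of the 10 genes reached. The common biological coefficient of variation was 0.142. The GC correction took a natural spline with 5 degrees of freedom of each library's deviation against GC content as offsets, for the 13176 genes with a GC value, and was tested, like the fit itself, on simulated counts that held no GC trend. GC content, length and positions come from GENCODE M21 on GRCm38, with 1 transcript per gene chosen by support level and then length. DESeq2 1.42.0 and limma 3.58.1 were alternatives. Intervals are 95% intervals of the fit, and the floor of 3 counts covers counting error only.

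The 10 genes, the lists and the tests were chosen with earlier results of these data known. Genes named from the lists were the other cathepsins and inhibitors that were tested and, in the lists of processing and delivery, hydrolases and osteoclast genes, the 5 with the lowest p. Genes named for likeness to Ctsk were the 5 nearest. Some genes that these rules name are not reported here. Those named among markers were chosen after their values were seen. The paper's qRT-PCR, protein and animal experiments were not analysed here.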

Additional observations from a re-analysis of the deposited data

How the results depend on the processing

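Ctsk kept its direction under all settings run. It came past both limits with DESeq2 (log2 fold change 0.77, adjusted p = 6.26e-09), with the GC correction in DESeq2 (0.73, adjusted p = 9.12e-14), and in edgeR with the GC correction without KO replicate 1 (0.78, adjusted p = 0.00825), and in no other setting. With each library left out, its log2 fold change was 0.70 to 0.83 (adjusted p from 0.0471 to 0.442), and 0.67 to 0.78 with the GC correction as well. The number of genes past the limits among all genes was 1 in edgeR, 4 with the GC correction, 126 with DESeq2 and 342 with both, and 0 to 2 with a library left out. Of the 10 genes, 1 was under an unadjusted p of 0.05 in edgeR, against 26.2% of all genes. There were 3 with DESeq2 (13.9% of all genes), limma-voom (25.8%), edgeR's legacy test (26.1%) or no filter on low counts (17%), 2 with library size alone (25.4%), 4 with the GC correction alone (26.4%) or with DESeq2 (22.7%), 3 with the GC correction and the replicate block (22.9%), and 1 to 4 with a library left out (11.2% to 33.2%). The 4 were found without KO replicate 3 (19.3% of all genes) and were Ctsk, Cst3, Ctsc and Ctsd.

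The GC correction turned the sign of 4 genes, alone, with the replicate block and with DESeq2. Ctsa went from -0.068 to 0.12 in all 3, Ctsz from -0.18 to 0.076, 0.073 and 0.076, Ctsl from 0.12 to -0.042, -0.044 and -0.042, and Ctss from 0.075 to -0.054, -0.060 and -0.054. With a library left out, Ctsh ran from -0.030 to 0.074 and Ctss from -0.076 to 0.19. None of these values had an unadjusted p under 0.05. Per kb of coding sequence, Ctsb was number 1, Ctsd number 2, Cst3 number 5 and Ctsk number 6 in WT, while the other 6 genes kept their place. Of 177 values for the other 9 genes, 162 kept their direction and their side of the limits. The GC correction with a library left out was counted among these values for Ctsc only. In such fits Ctsd, Ctsh, Ctsl and Ctss took both signs, while Ctsb and Cst3 kept theirs. Ctsa and Ctsz, below 0 without the correction, were above 0 throughout.

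Same-numbered WT and KO libraries did not deviate together (r = -0.215, 0.0766 and 0.166 over genes for replicates 1, 2 and 3), and nothing in the labels pairs them. The replicate block left 1 gene past the limits and gave 3561 genes with an unadjusted p under 0.05 against 3515, and Ctsk had a log2 fold change of 0.77 with the block (adjusted p = 0.0747). Without the GC correction no other call for the 10 genes changed with the block. With it, the block left Ctsb above an unadjusted p of 0.05 and took the adjusted p of Ctsc from 0.0494 to 0.0977. The GC correction with a library left out and the fit without ribosomal RNA genes were added after the data were seen. The alternative per coding length used the coding length of the annotation.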
